A study of Mus musculus with 9 samples.

Results

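A set of 10 genes of prostaglandin synthesis, inactivation and reception were followed, 10 of the 25239 genes listed in the deposited table. They are the cytosolic phospholipase A2 gene Pla2g4a, the cyclooxygenase genes Ptgs1 and Ptgs2, the synthase genes Ptges, Ptgis and Ptgds, the inactivating enzyme gene Hpgd, and the prostaglandin E2 receptor genes Ptger1, Ptger2 and Ptger4. The genes were chosen by name, with their FPKM in all 3 groups already known, so their levels and differences are given as a description without p-values. FPKM are reads scaled by gene length and library total.

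The cells were primary mouse astrocytes, cultured from cortex taken at postnatal day 4. The day 1 group received 200 µM hydrogen peroxide for 3 h and was collected 24 h after washing. The day 3 group had the same exposure and was collected 72 h after washing. The control group was labelled as control, with no harvest time given, and neither strain nor genotype is named in the sources used here. Each group had 3 libraries of polyadenylated RNA, and since nothing says that these came from separate cultures, intervals and p-values measure the spread between libraries, which may be technical.

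Prostaglandins are short-lived lipid signals. Phospholipase A2 frees arachidonic acid from membranes, the cyclooxygenases turn it into prostaglandin H2, and terminal synthases make prostaglandin E2, prostaglandin D2, prostacyclin or thromboxane from that. The products act on G protein-coupled receptors of nearby cells and are taken up and oxidised by 15-hydroxyprostaglandin dehydrogenase, the product of Hpgd. In brain, Ptgs2 is known as the inducible cyclooxygenase gene, and Ptgds is known for expression in leptomeningeal cells and oligodendrocytes.

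Promoter sequences are shown for Ptgs2 and Ptgds, which had the widest differences among the 10 genes, and for Ptgs1, the other cyclooxygenase gene. Each runs 5′ to 3′ on the gene's own strand from 250 bases before the RefSeq start to 50 bases from it, in the build GRCm38.p6. Capitals mark matches to the motifs searched.
Ptgs2, chr1:150099781-150100080, plus strand: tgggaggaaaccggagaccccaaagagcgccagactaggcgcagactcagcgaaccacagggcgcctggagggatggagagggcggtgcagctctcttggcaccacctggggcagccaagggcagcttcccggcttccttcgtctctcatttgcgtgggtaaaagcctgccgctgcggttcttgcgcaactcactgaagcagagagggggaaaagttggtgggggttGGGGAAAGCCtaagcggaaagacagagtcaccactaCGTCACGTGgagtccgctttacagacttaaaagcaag
Ptgs1, chr2:36230176-36230475, plus strand: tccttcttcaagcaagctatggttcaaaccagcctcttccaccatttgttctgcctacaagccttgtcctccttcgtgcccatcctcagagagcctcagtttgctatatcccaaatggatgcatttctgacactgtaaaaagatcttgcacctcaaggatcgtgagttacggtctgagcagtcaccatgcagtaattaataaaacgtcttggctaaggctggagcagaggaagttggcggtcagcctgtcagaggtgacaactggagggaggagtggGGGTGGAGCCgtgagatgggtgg
Ptgds, chr2:25469700-25469999, minus strand: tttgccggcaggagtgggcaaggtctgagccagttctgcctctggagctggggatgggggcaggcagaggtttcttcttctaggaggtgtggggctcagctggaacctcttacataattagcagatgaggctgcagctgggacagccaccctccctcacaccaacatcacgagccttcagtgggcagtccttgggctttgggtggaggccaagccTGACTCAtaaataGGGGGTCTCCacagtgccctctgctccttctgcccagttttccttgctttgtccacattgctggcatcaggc

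The motifs searched, on both strands, were the TATA box TATAAA, the cyclic AMP response half-site TGACG, the E-box CACGTG, the AP-1 motif TGANTCA, a C/EBP motif written TTNNGCAAT, the antioxidant response core TGACNNNGC and a loose NF-kappaB motif of GGG, any 5 bases and CC. The Ptgs2 window held the NF-kappaB motif at position -23 from the start, the cyclic AMP half-site on the opposite strand at 14 and the E-box at 17, where the last 2 overlap. The Ptgs1 window held the NF-kappaB motif at 28, and the Ptgds window held the AP-1 motif at -35 and the NF-kappaB motif at -22. Among 32851 RefSeq promoter windows of the same length, 50.8% held the NF-kappaB motif, 20.8% the cyclic AMP half-site, 7.15% the E-box and 7.81% the AP-1 motif. Of the motifs with no match in the 3 windows, the TATA box was in 13.6%, the antioxidant core in 12.4% and the C/EBP motif in 2.18%. The C/EBP motif was searched only as written, and the Ptgs2 window holds ttgcgcaac, which differs from it in the last base alone. A C/EBP site in that window is therefore not excluded. The TATA box was likewise searched only as written. Across the end of its AP-1 match the Ptgds window holds cataaa, which differs from TATAAA in the first base alone. A TATA-like element there is not excluded either. These matches describe letters in the window and do not show a bound site.

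Library totals ran from 23032594 to 27850348 reads on day 1, from 30545004 to 36749577 on day 3 and from 30278210 to 38414668 in control. The ribosomal precursor Rn45s took 7.67% to 9.36% of reads on day 1, 9.15% to 11.1% on day 3 and 9.41% to 11.9% in control. Differences below are therefore on the log2(FPKM + 0.1) scale after rescaling by the median ratio between libraries, and this scale understates changes of low genes. The astrocyte label was checked against 10 astrocyte markers, whose summed FPKM was 2450 to 2760 on day 1, 2850 to 2880 on day 3 and 3170 to 3240 in control. Gfap alone averaged 1230, 1330 and 1490 FPKM in these groups. The markers differed in direction: on day 1, 2 were higher than control (Aldh1l1 and Aqp4) and 6 lower, at a limma adjusted p under 0.05. Other cell types were also represented: 13 microglial markers summed to 137 to 150 FPKM on day 1, 262 to 333 on day 3 and 315 to 342 in control. The 7 neuronal markers summed to 73.5 to 75.5 FPKM on day 1, 73.7 to 75.9 on day 3 and 70.3 to 71.8 in control, nearly all of it Map2 and Tubb3, with Rbfox3 and Slc17a7 under 0.1. The 6 endothelial markers summed to 12.7 to 13.5 FPKM on day 1, 14.7 to 15.9 on day 3 and 12.8 to 13.6 in control, most of it Cdh5, with Pecam1 and Cldn5 under 0.1.

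**Figure D1:**
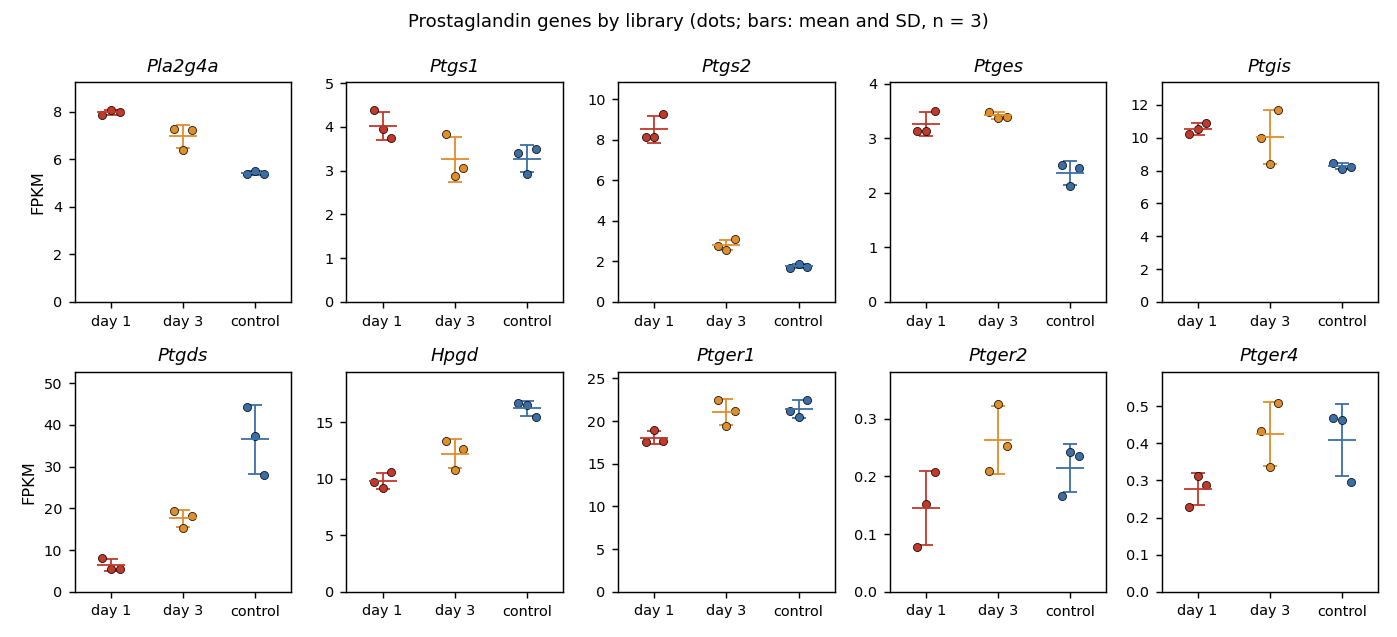
FPKM of the 10 prostaglandin genes in each library (dots), with the mean and SD of each group (bars, n = 3); each panel has its own vertical axis from 0. Ptgs2 lies between 8.14 and 9.26 on day 1, above every day 3 and control library, while Ptgds lies between 5.56 and 8.19 on day 1, below every day 3 and control library.

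Of the 10 genes, 8 passed the filter of a mean of at least 1 FPKM, which 12611 genes in all passed. On day 1, 8 of the 8 genes had libraries that did not overlap control, 5 higher and 3 lower. Over all genes tested, 66.1% had groups that did not overlap in that comparison, 31.1% were called higher and 31.1% were called lower. A gene is called where its limma adjusted p is under 0.05 over all genes tested. On day 3, 5 of the 8 did not overlap control, 3 higher and 2 lower, where 30.3% of all genes did not overlap, 7.37% were called higher and 6.45% lower. Between day 3 and day 1, 5 of the 8 did not overlap, 3 higher and 2 lower on day 3, where 61.8% of all genes did not overlap, 27.9% were called higher and 28.4% lower. Because these contrasts were known when the genes were chosen, nothing is read from the counts.

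Pla2g4a, which encodes the calcium-dependent phospholipase that releases arachidonic acid, had 7.87, 8.07 and 7.98 FPKM on day 1, 7.28, 6.40 and 7.22 on day 3, and 5.38, 5.52 and 5.40 in control. All 3 groups were apart, with day 1 highest and control lowest. The day 1 level was 1.49-fold that of control (95% interval 1.39 to 1.60) and the day 3 level 1.29-fold (1.20 to 1.38). Pla2g4a and Ptgs2 are close together on chromosome 1, 139 kb apart (GENCODE M21, GRCm38), and both were higher than control on both days.

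A list of 20 other phospholipase, lipase and acyl transfer genes, which also held Anxa1, was tested, and 15 passed the filter. Not every gene on it frees or recycles arachidonic acid. On day 1, 4 rose (Anxa1, Acsl4, Mgll and Dagla) and 6 fell (Pla2g5, Pla2g7, Daglb, Abhd12, Lpcat3 and Mboat7). The shares were 26.7% and 40.0%, against 31.1% in each direction over all genes. The Dagla call was lost in 2 of 18 alternatives. The median log2 change of the 15 was -0.10, against -0.001 over all genes tested. Anxa1 encodes annexin A1, a protein known to restrain phospholipase A2. It had 159 ± 11 FPKM on day 1, 103 ± 10.6 on day 3 and 73.2 ± 3.84 in control (SD, n = 3 each), a log2 change of 1.15 on day 1 (limma adjusted p = 3.39e-07) and 0.50 on day 3 (limma adjusted p = 0.0015).

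Acsl4, the acyl-CoA synthetase that returns arachidonic acid to lipids, averaged 5.67 ± 0.0385 FPKM on day 1, 3.73 ± 0.256 on day 3 and 3.66 ± 0.256 in control (SD, n = 3 each). It rose on day 1 by 0.65 on the log2 scale (limma adjusted p = 1.08e-05). Mgll, the monoacylglycerol lipase that supplies arachidonic acid to cyclooxygenases in mouse brain, averaged 28.5 ± 0.565 FPKM on day 1, 18.0 ± 0.686 on day 3 and 19.7 ± 0.796 in control. Its log2 change was 0.56 on day 1 (limma adjusted p = 3.77e-07) and -0.11 on day 3 (limma adjusted p = 0.0725, from 0.034 to 0.232 over the alternatives). Pla2g5, a secreted phospholipase, moved the other way and averaged 3.60 ± 0.295 FPKM on day 1, 6.31 ± 0.117 on day 3 and 7.23 ± 0.412 in control. It fell by 0.96 on the log2 scale on day 1 (limma adjusted p = 2.08e-07), and its day 3 difference of -0.17 had a limma adjusted p of 0.068, from 0.0357 to 0.202 over the alternatives.

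On day 3, 3 of the 15 supply genes rose (Anxa1, Pla2g7 and Pla2g15) and 1 fell (Lpcat3, log2 change -0.14, limma adjusted p = 0.0075). Pla2g15, the lysosomal phospholipase, averaged 8.85 ± 0.267 FPKM on day 1, 11.2 ± 0.517 on day 3 and 8.96 ± 0.262 in control. It rose on day 3 by 0.33 (limma adjusted p = 0.000598) and did not pass on day 1 (limma adjusted p = 0.773). Pla2g7, the lipoprotein-associated phospholipase, had 91.3 ± 2.80 FPKM on day 1, 118 ± 2.97 on day 3 and 103 ± 2.52 in control. It fell on day 1 by 0.14 (limma adjusted p = 0.000888) and rose on day 3 by 0.22 (limma adjusted p = 0.00057). Between day 3 and day 1, 7 of the 15 were higher on day 3 and 3 lower, the lower ones being Mgll, Acsl4 and Anxa1.

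Ptgs2, on chromosome 1 from 150100031 to 150108227 on the plus strand, encodes the inducible cyclooxygenase. Its level was 8.15, 8.14 and 9.26 FPKM on day 1, 2.77, 2.58 and 3.09 on day 3, and 1.70, 1.87 and 1.72 in control. These values rest on 860 to 1011 reads per library on day 1, 378 to 507 on day 3 and 229 to 321 in control. The 3 groups did not overlap, with day 3 between day 1 and control. The day 1 level was 4.72-fold that of control (95% interval 4.18 to 5.34), the day 3 level 1.58-fold (1.40 to 1.79), and day 3 was 2.99-fold below day 1 (2.64 to 3.38).

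Ptgs1, the constitutive cyclooxygenase gene on chromosome 2, had 4.38, 3.96 and 3.74 FPKM on day 1, 3.85, 2.87 and 3.07 on day 3, and 3.40, 2.93 and 3.50 in control. Day 1 was above every control library, and day 3 overlapped both other groups. The day 1 level was 1.25-fold that of control (95% interval 1.06 to 1.47), and the day 3 level was 1.00-fold (0.849 to 1.18). Ptgs1 is known in microglia, and 11 of 12 tested microglial markers fell on day 1 (median log2 change -1.34); their part in the Ptgs1 level was not tested. In bulk RNA, fewer cells of a type and less RNA per cell cannot be told apart.

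The share of Ptgs2 in the summed FPKM of the 2 cyclooxygenase genes was 65.0%, 67.3% and 71.2% on day 1, 41.9%, 47.4% and 50.2% on day 3, and 33.3%, 39.0% and 32.9% in control. Ptgs2 was thus the higher of the pair in every day 1 library and the lower in every control library. On day 3 it was lower in 2 of 3 libraries and about level with Ptgs1 in the third.

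**Figure D2:**
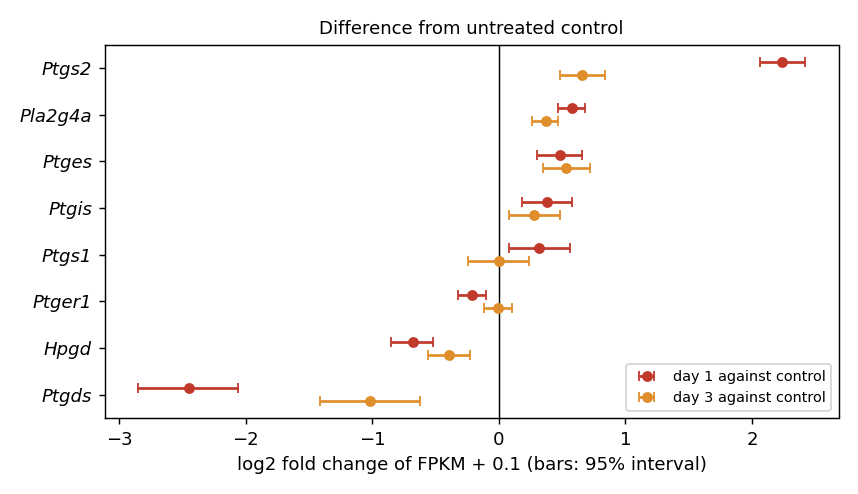
Difference from control of the 8 prostaglandin genes that passed the filter, on the log2(FPKM + 0.1) scale, with 95% intervals (bars) for day 1 and day 3. Ptgs2 (2.24 on day 1, 0.66 on day 3) and Ptgds (-2.45 and -1.02) lie at opposite ends, both nearer 0 on day 3, while Ptges is alike on both days (0.48 and 0.53).

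Ptges, the inducible microsomal prostaglandin E synthase gene on chromosome 2, had 3.14, 3.13 and 3.51 FPKM on day 1, 3.49, 3.38 and 3.39 on day 3, and 2.52, 2.12 and 2.46 in control. Both treated groups were above every control library and overlapped each other. The day 1 level was 1.39-fold that of control (95% interval 1.23 to 1.58) and the day 3 level 1.45-fold (1.28 to 1.64), with 1.04-fold (0.915 to 1.18) between day 3 and day 1. Ptges was thus about as far above control on day 3 as on day 1, whereas Ptgs2 on day 3 was nearer to control than on day 1.

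Ptgis, the prostacyclin synthase gene on chromosome 2, had 10.2, 10.5 and 10.9 FPKM on day 1, 10.0, 8.39 and 11.7 on day 3, and 8.47, 8.08 and 8.23 in control. Day 1 was above every control library, while day 3 was widely spread and overlapped control through its second library. The fold was 1.30 on day 1 (95% interval 1.13 to 1.49) and 1.21 on day 3 (1.06 to 1.39). Without the second day 3 library the day 3 log2 difference was 0.39, and without the third it was 0.17, against 0.28 with all. Mural cells are a known source of prostacyclin; 7 mural markers summed to 66.3 to 67.9 FPKM on day 1, 44.4 to 48.1 on day 3 and 42.5 to 43.6 in control, with Kcnj8 and Abcc9 under 0.1. Of 5 tested mural markers, 3 rose on day 1, 1 fell (Vtn) and 1 was not called (Rgs5), and their part was not tested.

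Ptgds, which encodes the lipocalin-type prostaglandin D synthase, lies on chromosome 2 from 25466709 to 25470046 on the minus strand. Its level was 8.19, 5.58 and 5.56 FPKM on day 1, 19.3, 15.4 and 18.2 on day 3, and 44.4, 37.3 and 28.0 in control. The groups did not overlap, although the control libraries were spread from 28.0 to 44.4. Ptgds was 5.48-fold lower than control on day 1 (95% interval 4.16 to 7.21) and 2.02-fold lower on day 3 (1.54 to 2.66). The day 3 level was 2.71-fold that of day 1 (2.06 to 3.57).

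Markers of cell types known to express Ptgds differed between the same groups. The 12 oligodendrocyte lineage markers summed to 417 to 452 FPKM on day 1, 549 to 581 on day 3 and 654 to 684 in control. All 10 that were tested fell on day 1, with a median log2 change of -1.68, and 8 of the 10 fell on day 3, with a median of -0.76. The 10 leptomeningeal and perivascular fibroblast markers summed to 67.3 to 70.1 FPKM on day 1, 107 to 108 on day 3 and 90.5 to 92.5 in control, with Slc47a1 and Slc22a6 under 0.1. Of 7 tested fibroblast markers, 3 rose (Crabp2, Tbx18 and Aldh1a2) and 3 fell (Dcn, Lum and Foxc1) on day 1. The median log2 change of the 7 was 0.04. Dcn had 9.01 FPKM on day 1, 52.5 on day 3 and 45.1 in control, while Crabp2 had 14.6, 3.54 and 2.52. On day 3, 5 of the 7 rose, while Ptgds was below control. The part of these cells in the Ptgds level was not tested.

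Of 7 other synthase genes, 6 passed the filter. On day 1, 1 rose (Ptges3, log2 change 0.14, limma adjusted p = 0.00165, but 0.175 after quantile normalization) and 2 fell, Hpgds and Tbxas1. The shares were 16.7% and 33.3%, against 31.1% in each direction over all genes. Hpgds, the haematopoietic prostaglandin D synthase gene, averaged 1.11 ± 0.160 FPKM on day 1, 2.80 ± 0.549 on day 3 and 2.6 ± 0.155 in control (SD, n = 3 each). Its log2 change was -1.14 on day 1 (limma adjusted p = 3.83e-05) and 0.10 on day 3 (limma adjusted p = 0.702). Both prostaglandin D synthase genes were thus lower on day 1, and on day 3 Hpgds overlapped control while Ptgds did not.

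Tbxas1, the thromboxane synthase gene, averaged 0.770 ± 0.0966 FPKM on day 1, 2.01 ± 0.430 on day 3 and 2.12 ± 0.217 in control. It fell by 1.32 on the log2 scale on day 1 (limma adjusted p = 3.07e-05), with -0.08 on day 3 (limma adjusted p = 0.803). Hpgds and Tbxas1 are both known in microglia. Of the 12 microglial markers tested, 11 fell and 1 rose on day 1, and 0 were called by limma on day 3 (median log2 change -0.08), with 1 at an unadjusted p under 0.05 and 0 by limma-voom; their part in both genes was not tested. On day 3, 0 of the 6 synthase genes passed against control by limma, 0 had an unadjusted p under 0.05 and 0 passed by limma-voom. Between day 3 and day 1, Hpgds and Tbxas1 were higher on day 3 and Ptges3 lower, the last with a limma adjusted p of 0.0416 that ran from 0.0316 to 0.988 over the alternatives. Akr1b3, an aldose reductase gene whose product has prostaglandin F synthase activity in mouse, was listed at 0 in all 9 libraries. The annotation behind the FPKM is not named. Whether reads of this gene were left out or counted under another symbol was not tested, so the 0 does not show absence.

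Hpgd, on chromosome 8 from 56294585 to 56321043, encodes the enzyme that oxidises and inactivates prostaglandins. It had 9.71, 9.21 and 10.6 FPKM on day 1, 13.3, 10.8 and 12.6 on day 3, and 16.7, 16.5 and 15.5 in control. The groups did not overlap, with day 1 lowest and day 3 between. Hpgd was 1.61-fold lower than control on day 1 (95% interval 1.43 to 1.80) and 1.31-fold lower on day 3 (1.17 to 1.47).

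Of 7 other transport and inactivation genes, 6 passed the filter, and on day 1, 3 rose (Slco2a1, Ptgr1 and Ptgr2) and 2 fell (Abcc4 and Cbr3). Slco2a1, the prostaglandin uptake transporter gene, had 1.85, 1.93 and 2.02 FPKM on day 1, 0.654, 0.626 and 0.745 on day 3, and 0.561, 0.486 and 0.539 in control. Its day 1 level was 3.30-fold that of control (95% interval 2.71 to 4.01), and day 3 was below day 1 by 2.65-fold (2.18 to 3.23). Its mean over the 9 libraries, 1.05 FPKM, passed the filter only through the day 1 libraries, so these differences are given as a description and its calls support nothing. On day 3 the log2 difference from control of 0.31 did not pass (limma adjusted p = 0.138). Slco2a1 is known in endothelium. Of the 6 endothelial markers 1 passed the filter, Cdh5, with a log2 difference of 0.01 on day 1 (limma adjusted p = 0.866). Below the filter the markers differed in direction. Flt1 averaged 1.13 FPKM on day 1 and 0.508 in control, Kdr 0.801 and 1.16, and Tek 0.192 and 0.46. Pecam1 and Cldn5 were near 0. The part of endothelial cells in the Slco2a1 level was not tested.

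Ptgr1, a reductase acting on the oxidised products of Hpgd and on leukotriene B4, averaged 13.2 ± 0.846 FPKM on day 1, 8.19 ± 0.485 on day 3 and 6.91 ± 0.116 in control (SD, n = 3 each). It rose on both days, by 0.96 on day 1 (limma adjusted p = 1.66e-07) and by 0.26 on day 3 (limma adjusted p = 0.0117) on the log2 scale. The related Ptgr2 rose by 0.13 and 0.12 on the log2 scale, and its day 3 limma adjusted p of 0.0476 missed the threshold in 12 of 18 alternatives. Abcc4, a prostaglandin exporter, fell on day 1 by 0.27 (limma adjusted p = 0.00134), and Cbr3 by 0.26 (limma adjusted p = 0.00106). On day 1 the reductase gene Ptgr1 was thus above control, while the exporter gene Abcc4 and the dehydrogenase gene Hpgd were below it.

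**Figure D3:**
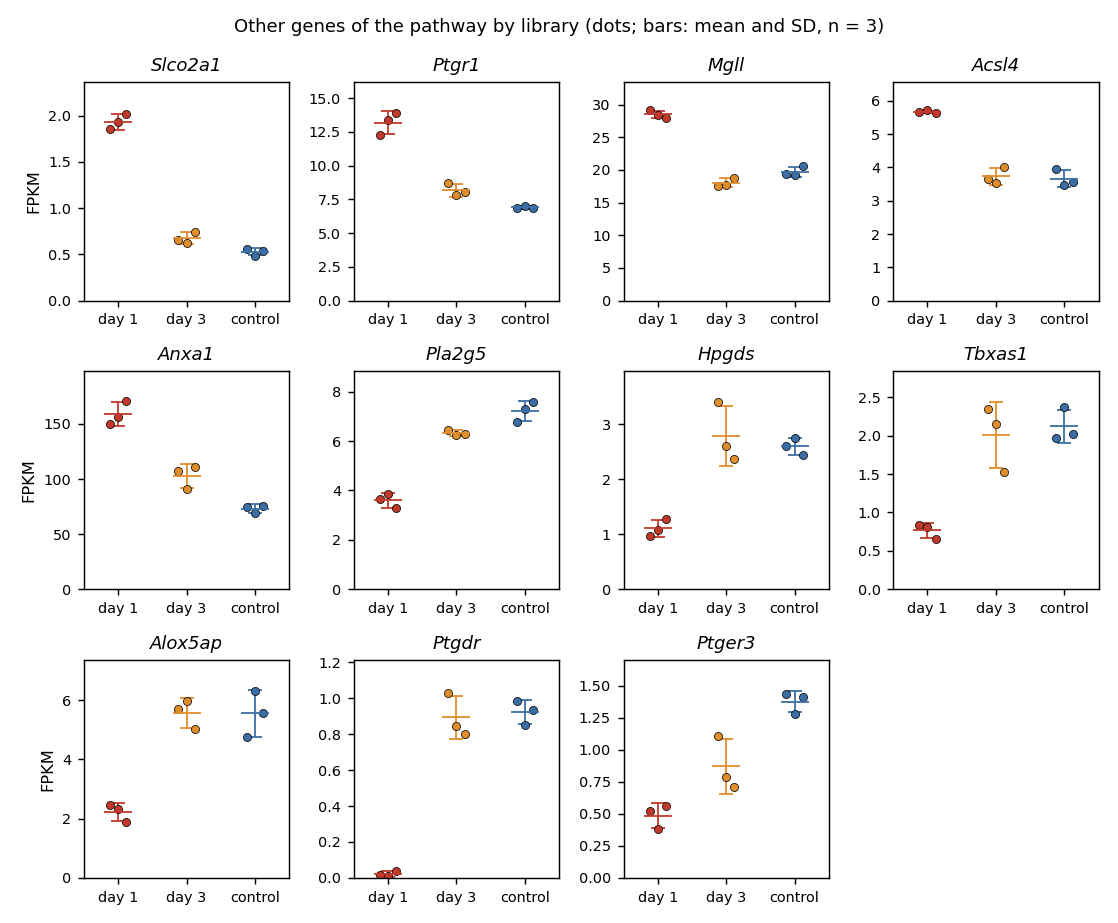
FPKM of other pathway genes in each library (dots), with the mean and SD of each group (bars, n = 3); each panel has its own vertical axis from 0. Slco2a1 lies between 1.85 and 2.02 on day 1 and between 0.486 and 0.745 elsewhere, while Ptgdr is near 0 on day 1 and between 0.803 and 1.03 elsewhere.

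Among the receptors, Ptger1, the gene of the calcium-coupled prostaglandin E2 receptor EP1, had 17.6, 18.9 and 17.7 FPKM on day 1, 22.5, 19.4 and 21.2 on day 3, and 21.2, 20.5 and 22.5 in control. The day 1 libraries were below all others, and day 3 overlapped control. Ptger1 was 1.16-fold lower than control on day 1 (95% interval 1.07 to 1.25) and 1.01-fold lower on day 3 (0.932 to 1.09). The sources used here do not say whether reads were assigned by strand, and the level of Ptger1 is uncertain.

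Ptger2 and Ptger4 encode the EP2 and EP4 receptors, which raise cyclic AMP, and both were below the filter. Ptger2 had 0.0785, 0.152 and 0.207 FPKM on day 1, 0.209, 0.326 and 0.253 on day 3, and 0.167, 0.242 and 0.236 in control. Ptger4 had 0.229, 0.313 and 0.287 FPKM on day 1, 0.433, 0.336 and 0.507 on day 3, and 0.467, 0.462 and 0.296 in control. For each of them day 1 and control overlapped and day 3 was above every day 1 library.

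The depth behind these 2 receptors is small. Ptger2 had 7, 16 and 18 reads on day 1, 24, 45 and 35 on day 3, and 19, 35 and 28 in control, and Ptger4 had 18 to 29, 41 to 62 and 31 to 59 reads in the same groups. Pooled over a group and set against library totals, day 3 over day 1 was 1.82 for Ptger2 (95% exact interval 1.26 to 2.68) and 1.53 for Ptger4 (1.14 to 2.06), covering counting error only. Day 1 over control was 0.672 for Ptger2 (0.450 to 0.989) and 0.677 for Ptger4 (0.499 to 0.911). For Ptger4, 15.3% of exon bases are shared with the pseudogene Gm15937 on the opposite strand.

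Of the 7 other prostanoid receptor genes, 1 passed the filter. This was Ptgfr, the prostaglandin F receptor gene, at 2.99 ± 0.273 FPKM on day 1, 3.51 ± 0.153 on day 3 and 3.39 ± 0.285 in control (SD, n = 3 each). It was not called against control on either day, with limma adjusted p values of 0.128 on day 1 and 0.651 on day 3. Between day 3 and day 1 its log2 difference was 0.21 (limma adjusted p = 0.0401), which missed the threshold in 6 of 18 alternatives.

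With the filter lowered to a mean of 0.1 FPKM (15913 genes tested), 2 receptor genes, Ptgdr and Ptger3, were singled out after their values were seen. Ptgdr, the gene of the DP1 receptor for prostaglandin D2, had 0.0133, 0.0113 and 0.0409 FPKM on day 1, 1.03, 0.848 and 0.803 on day 3, and 0.984, 0.849 and 0.936 in control. These correspond to 1, 1 and 3 reads on day 1, 100, 99 and 94 on day 3, and 95, 104 and 94 in control. The day 1 libraries thus held almost no Ptgdr reads, while day 3 and control overlapped. Set against library totals, the day 1 rate was 43.6-fold below control (95% exact interval 18.5 to 135, counting error only).

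On the log2 scale Ptgdr fell by 3.05 on day 1 (limma adjusted p = 3.42e-07), the difference was -0.03 on day 3 (limma adjusted p = 0.933), and day 3 was above day 1 by 3.02 (limma adjusted p = 6.70e-07). Ptgdr lies 129 kb from Ptger2 on chromosome 14, and 22.1% of its exon bases are shared with the pseudogene Gm16976 on the opposite strand. On day 1 Ptgds, Hpgds and Ptgdr were below control, where 31.1% of all genes at the main filter were called lower. The other prostaglandin D2 receptor gene, Ptgdr2, was barely detected, and its day 1 and control libraries overlapped. Ptgds and Ptgdr were picked with their values known, so nothing is read from these genes together.

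Ptger3, the gene of the EP3 receptor, which lowers cyclic AMP, had 0.524, 0.379 and 0.558 FPKM on day 1, 1.11, 0.789 and 0.711 on day 3, and 1.44, 1.28 and 1.41 in control. The groups did not overlap. It fell by 1.31 on day 1 (limma adjusted p = 0.000141) and its day 3 difference of -0.61 did not pass (limma adjusted p = 0.0543). Tbxa2r, the thromboxane receptor gene, was called higher on day 1 by 0.66 (limma adjusted p = 0.0236). It had 0.645 ± 0.162 FPKM on day 1, 0.399 ± 0.0225 on day 3 and 0.385 ± 0.108 in control. This rests on 25, 49 and 32 reads on day 1 and 28, 22 and 32 in control. The lowest day 1 library, at 0.486 FPKM, was close to the highest control library, at 0.467. The call was made only under the lowered filter and was not put through the other alternatives. The prostacyclin receptor gene Ptgir averaged 0.0414 FPKM on day 1, 0.0480 on day 3 and 0.0368 in control, so it was close to 0 in cultures that held 8.08 to 11.7 FPKM of the prostacyclin synthase gene Ptgis. The second prostaglandin D2 receptor gene, Ptgdr2, averaged 0.0381, 0.0213 and 0.0454 FPKM in the same groups.

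Arachidonic acid also feeds the 5-lipoxygenase branch, which makes leukotrienes. A list for this and related arachidonic acid branches held 9 genes, of which 3 passed the filter. On day 1, 2 rose (Lta4h and Ephx2) and 1 fell (Alox5ap), where 31.1% of all genes were called in each direction. Ephx2 encodes an epoxide hydrolase that is not part of the 5-lipoxygenase branch. The day 1 change of Ephx2, 0.20 (limma adjusted p = 0.0196), missed the threshold in 4 of 18 alternatives, with an adjusted p of up to 0.0757. Alox5ap, the activating protein of 5-lipoxygenase and known in microglia, averaged 2.23 ± 0.303 FPKM on day 1, 5.57 ± 0.495 on day 3 and 5.55 ± 0.780 in control (SD, n = 3 each). It fell by 1.25 on day 1 (limma adjusted p = 4.57e-06), with 0.03 on day 3 (limma adjusted p = 0.907), beside the microglial marker values given for Tbxas1. Lta4h, the leukotriene A4 hydrolase gene, rose by 0.29 on day 1 (limma adjusted p = 9.10e-06) and did not differ beyond the threshold on day 3 (log2 difference 0.00, limma adjusted p = 0.988). On day 3, 1 of the 3 rose, Ephx2, by 0.24 (limma adjusted p = 0.0353, missing the threshold in 7 of 18 alternatives).

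The 10 listed genes that regulate the Ptgs2 message all passed the filter. On day 1, 2 rose (Zfp36 and Elavl1) and 6 fell (Cebpb, Nfkb1, Rela, Zfp36l1, Khsrp and Tnfrsf1a), while Ptgs2 was above control. The Elavl1 change of 0.10 (limma adjusted p = 0.0303) missed the threshold in 6 of 18 alternatives, with an adjusted p of up to 0.172, and that of Tnfrsf1a (limma adjusted p = 0.0215) in 2 of 18. Zfp36l1, which encodes a protein that speeds decay of AU-rich messages, had 41.4 ± 1.39 FPKM on day 1, 51.4 ± 0.714 on day 3 and 56.1 ± 1.53 in control. It fell by 0.41 on day 1 (limma adjusted p = 1.27e-06), although 55.9% of its exon bases are shared with an opposite-strand gene, Gm26669. The related Zfp36 rose by 0.25 on day 1 (limma adjusted p = 0.0252), a call lost in 4 of 18 alternatives, each of them leaving out 1 library, and the change was 0.14 without the third day 1 library. Transcription factor genes of the list fell modestly, Rela and Nfkb1 each by 0.16 on the log2 scale and Cebpb by 0.24.

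On day 3, 1 of the 10 regulators rose (Tnfrsf1a) and 1 fell (Zfp36l1, limma adjusted p = 0.042, missing the threshold in 7 of 18 alternatives). Over all genes, 7.37% were called higher and 6.45% lower. Tnfrsf1a, a tumour necrosis factor receptor gene, averaged 81.3 ± 0.702 FPKM on day 1, 99.4 ± 2.91 on day 3 and 87.5 ± 0.637 in control. Its log2 change was -0.07 on day 1 (limma adjusted p = 0.0215, lost without the first control or second day 1 library at 0.0722 and 0.0845) and 0.20 on day 3 (limma adjusted p = 0.000598).

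Over the 6 lists together, 41 of 60 pathway genes passed the filter. On day 1, 12 of them rose (29.3%) and 17 fell (41.5%), against 31.1% in each direction over all genes, and without rescaling between libraries the split was 9 and 20. On day 3, 7 rose (17.1%) and 2 fell (4.88%), against 7.37% and 6.45%, and after quantile normalization the split was 6 and 3. Between day 3 and day 1, 19 were higher on day 3 (46.3%) and 10 lower (24.4%), against 27.9% and 28.4%. The median log2 differences of the 41 were -0.07, 0.03 and 0.10 in these 3 comparisons, beside -0.001, 0.006 and 0.001 over all genes. The 2 comparisons with control share the same control libraries. Slco2a1, which passed the filter only through its day 1 libraries, is counted among the 12 that rose on day 1. It is also among the 10 that were lower on day 3 than on day 1. Among the genes named, Ptgr2, Daglb and Cebpb share 32.0%, 24.1% and 20.7% of their exon bases with opposite-strand genes, and without a stated strand setting the reads of such pairs cannot be told apart.

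The order of the 10 genes by FPKM, a per-length level, differed between groups. On day 1 it ran Ptger1, Ptgis, Hpgd, Ptgs2, Pla2g4a, Ptgds, Ptgs1, Ptges, Ptger4 and Ptger2, with overlapping libraries between Ptgis and Hpgd, Hpgd and Ptgs2, and Pla2g4a and Ptgds. On day 3 it ran Ptger1, Ptgds, Hpgd, Ptgis, Pla2g4a, Ptges, Ptgs1, Ptgs2, Ptger4 and Ptger2, with overlap between Hpgd and Ptgis, Ptges and Ptgs1, and Ptgs1 and Ptgs2. In control it ran Ptgds, Ptger1, Hpgd, Ptgis, Pla2g4a, Ptgs1, Ptges, Ptgs2, Ptger4 and Ptger2, and no neighbours overlapped. Ptgds thus stood below Pla2g4a on day 1 and at the top in control, and Ptgs2 stood above Pla2g4a on day 1 and below Ptges in control, with the place of Ptger1 uncertain.

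The 5 genes whose profile over the 9 libraries was most like that of Ptgs2 included Col6a3, Timp1, Fbln2 and Pmaip1. Likeness was the root mean square difference of log2(FPKM + 0.1) values, each gene centred on its own mean, and it was 0.107 to 0.135 for the 5, against 0.949 for the median gene tested. Timp1, which encodes an inhibitor of matrix metalloproteinases, had 116 ± 9.03 FPKM on day 1, 43.7 ± 2.7 on day 3 and 29.0 ± 1.48 in control. The 5 genes most like Ptgds were Cldn11, Cnmd, Mbp, Bmp7 and Dio3os, at 0.277 to 0.345 against 1.04 for the median gene. Cldn11, a tight junction gene of myelin, had 5.16 ± 1.08 FPKM on day 1, 17.3 ± 1.02 on day 3 and 28.8 ± 3.02 in control, and Cldn11 and Mbp are both on the oligodendrocyte lineage list. All these profiles share the libraries, and the likeness is a description.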

How the data were processed

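The deposited table holds FPKM, computed by the authors per gene and library. FastQC 0.12.1, cutadapt 2.6, STAR 2.7.3a and DESeq2, with builds GRCm38 and mm10, were used per the submitters' processing notes. The sources used here do not name the counter, annotation or strand handling. Poly(A) libraries were made with a NEBNext Ultra kit, per the labels' protocols. The values keep the depth: all 20350 genes above 0 gave whole reads. The tolerance was 0.002 read, and wider for genes with very many reads. Gene lengths were searched for a value that makes the reads whole, so this does not test the lengths.

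FPKM were rescaled by median-of-ratios factors (0.9762 to 1.02), filtered at a mean of 1 FPKM (12611 genes kept) and fitted as log2(FPKM + 0.1), with a term for group over all 9 libraries, using limma 3.58.1 (R 4.3.3) and an intensity trend. Tests were two-sided, with Benjamini-Hochberg adjustment over all genes tested. The fit was tested on simulated data.

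The 10 genes, the 6 pathway lists (60 genes, 2 matched through older symbols) and the marker lists were chosen with earlier results of these data known. The naming rule took all 10 genes, list genes called at 1.5-fold or more, and prostaglandin-step genes at or near 0; other names were chosen after their values were seen, and some results are not reported here. Promoters are from RefSeq; 8 of the 10 genes had one (Ptgis and Ptger1 had none). Alternatives covered the pseudocount, filter, scaling, libraries fitted, replicate block, limma-voom on recovered reads, and each library left out.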

Additional observations from a re-analysis of the deposited data

Results flagged for a closer look

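Of the 41 tested pathway genes, 29 were called between day 3 and day 1 (limma, adjusted p under 0.05 over all genes). On day 3, 19 were higher (46.3%) and 10 lower (24.4%), against 27.9% and 28.4% over all genes. The same day 1 libraries enter this comparison and that of day 1 with control, so opposite signs in the 2 are partly built in. The 11 given here are those that also changed by at least 1.5-fold in a comparison, or that were called in opposite directions against control on the 2 days. Lower on day 3 than on day 1 were Ptgr1 (log2 difference -0.70), Mgll (-0.67), Anxa1 (-0.64) and Acsl4 (-0.61), which were all above control on day 1. Slco2a1 was also lower on day 3 than on day 1 (-1.41), but it passed the filter on low genes only through its day 1 libraries, so its call supports nothing. Higher on day 3 than on day 1 were Alox5ap (1.27), Tbxas1 (1.25), Hpgds (1.24) and Pla2g5 (0.78), which were all below control on day 1. Pla2g7 (0.36) and Tnfrsf1a (0.27) fell below control on day 1 and rose above it on day 3; the Tnfrsf1a call on day 1 was lost in 2 of 18 alternatives. Of 12 tested microglial markers, 11 also fell on day 1 and 1 rose (Tmem119), and their part in Alox5ap, Tbxas1 and Hpgds was not tested.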

How the results depend on the processing

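No called result reversed under the 18 alternatives. Single-gene tests under them were taken only for pathway genes called in a main comparison. Of these tests, 1687 kept their side of the threshold, 85 lost the call and 10 gained it. The count of genes called on day 3 against control was 1742; leaving out each library in turn it ran from 1025 (without the third day 3 library) to 1764, and it was 1036 without the first day 3 library. With fewer samples the fit has fewer degrees of freedom. The numbers of called pathway genes (29 on day 1, 9 on day 3, 29 between the days) ran from 25 to 30, 6 to 10 and 23 to 29 when a library was left out. A pseudocount of 1 lowered the Ptgs2 log2 differences to 1.81 on day 1 and 0.48 on day 3, and to -1.33 between the days. Same-numbered libraries did not pair: their deviations from group means correlated at -0.079 to 0.111. With a replicate block, 1807 genes were called on day 3, and 30, 9 and 29 pathway genes. limma-voom on the recovered reads called 2462 genes on day 3, against 1522 without rescaling. Depth limits Ptger2 and Ptger4, which have 7 to 62 reads per library.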
